A study of Mus musculus with 6 samples.

Results

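The coagulation and fibrinolysis genes are a set of 34 listed mouse genes that make the clotting factors, their cofactors, inhibitors and receptors, and the enzymes that dissolve a clot. They were picked by gene symbol from a list by function, by a rule that uses no measured value, though with earlier results of these data known, and 33 of the 34 had an Ensembl identifier among the 43346 genes counted. The exception was Klkb1, plasma prekallikrein, whose level is not analysed here. The RNA was from liver of 3-month-old C57BL6 mice. In all, 3 libraries were labelled DKO, meant to lack both β-catenin (Ctnnb1) and γ-catenin (Jup) in hepatocytes, and 3 were labelled Control. The labels name neither the Cre line nor the alleles of either group, and nothing says that the numbered libraries are separate animals, so p-values measure the spread between these libraries.

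Hepatocytes make most of the clotting proteins in plasma. Thrombin, cut from prothrombin, turns fibrinogen into fibrin. It is formed through a tissue factor and factor VII branch and through a contact branch that runs from factor XII to factor XI and factor IX. Antithrombin, protein C and protein S hold the cascade back, and plasmin, cut from plasminogen, dissolves the clot. Tissue factor, thrombomodulin, von Willebrand factor and the plasminogen activators come largely from cells other than hepatocytes, and factor VIII is made by endothelial cells of the liver.

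The libraries differed greatly in depth, which bears on every value below. Reads assigned to genes numbered 309731, 525037 and 1491237 in DKO replicates 1, 2 and 3, against 12320487 to 15869639 in the Control libraries. They were 2.68% to 4.74% of all reads in the DKO libraries and 33.3% to 34.9% in the Control libraries. The 8 hepatocyte markers with an identifier summed to 773, 42679 and 7599 TMM-scaled CPM, the reads of a gene relative to the library's gene reads times its TMM normalization factor in the DKO libraries, against 128151 to 141657 CPM in the Control libraries. The 1461 odorant and vomeronasal receptor genes, which liver does not use, summed to 747 to 1443 CPM in the DKO libraries and 11.8 to 17.5 CPM in the Control libraries. Neither targeted transcript passed the threshold. Ctnnb1 had 0, 52 and 65 reads in the DKO libraries and 2650 to 2945 in the Control libraries, and Jup had 1 to 11 and 196 to 339. These reads are not adjusted for depth. The log2 fold changes after TMM scaling were -2.26 for Ctnnb1 and -1.68 for Jup (edgeR adjusted p = 0.171 and 0.0847). Tested genes at 75.9 to 5130 CPM in Control had a median of -2.25, so a loss of Ctnnb1 beyond that of other transcripts was not shown. The part that the differences between the libraries play in the results below was not tested. In whole liver, fewer cells of a type and less RNA per cell cannot be told apart.

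Most of the set was abundant in Control liver, and its most abundant transcripts encoded fibrinogen, kininogen and prothrombin. Levels between genes are given as RPKM, the reads per kb of the principal transcript relative to the gene reads of the library. On that scale Fgg, the fibrinogen gamma chain, averaged 2089 ± 431 in the Control libraries (SD, n = 3, as for all means below), and was the highest. Kng1, kininogen 1, the cofactor of the contact system and precursor of bradykinin, followed at 1361 ± 141. F2, prothrombin, averaged 1150 ± 76.4, Fga, the fibrinogen alpha chain, 1148 ± 313, and Fgb, the fibrinogen beta chain, 1076 ± 115. The Control libraries of F2, Fga and Fgb overlapped, so these neighbours did not differ beyond their spread.

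Below them came Plg, plasminogen, at 780 ± 26.7, and Hrg, a plasma protein that binds plasminogen and heparin, at 603 ± 35.1, each apart from its neighbours in every library. Proc, protein C, at 444 ± 9.88, and Serpinc1, antithrombin, at 434 ± 11.2, overlapped. The contact factor F12 averaged 328 ± 6.74 and Cpb2, a carboxypeptidase that protects fibrin from plasmin, 282 ± 25.5. The plasmin inhibitor Serpinf2 averaged 249 ± 9.68 and overlapped Cpb2. The clotting factors of the middle of the cascade were lower still. F10 stood at 173 ± 7.91, F11 at 67.1 ± 2.93, F7 at 63.1 ± 4.11, F9 at 59.3 ± 7.97 and the cofactor F5 at 53.8 ± 3.55, and F11, F7, F9 and F5 each overlapped the next in this order.

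The lowest of the set were genes known mainly from cells other than hepatocytes. Tfpi, the inhibitor of tissue factor and factor VII, averaged 4.33 ± 2.27 in Control and F3, tissue factor, 3.29 ± 1.90. Thbd, thrombomodulin, averaged 0.852 ± 0.344, F8 0.662 ± 0.258 and Vwf, von Willebrand factor, 0.592 ± 0.091. Plau, urokinase, its receptor Plaur, the tissue plasminogen activator Plat and F13a1, the transglutaminase subunit of factor XIII, were all at or below 0.501. F13b, the carrier subunit of factor XIII, was at 80.6 ± 4.08.

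**Figure D1:**
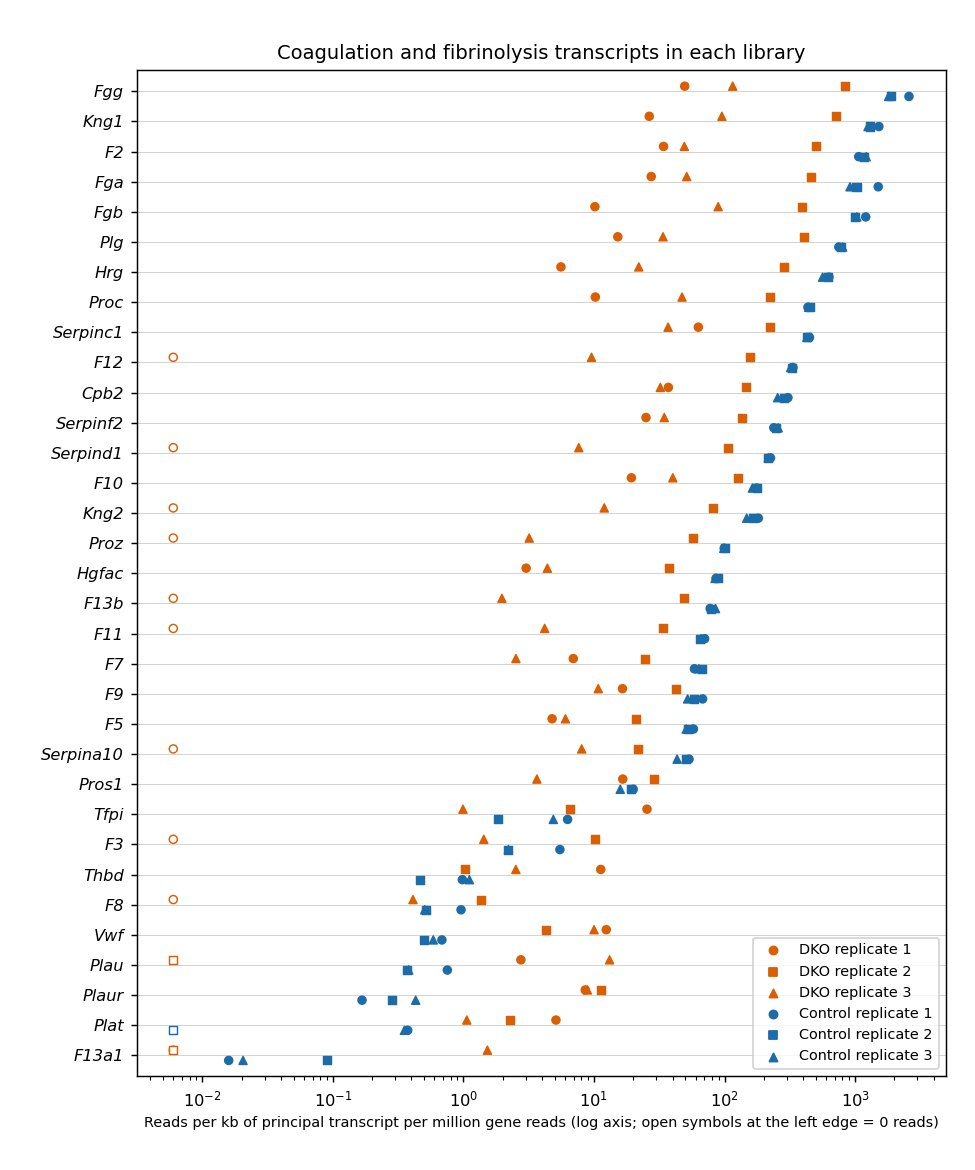
Level of each member in each library, in RPKM on a log axis, with DKO libraries above and Control libraries below each gene's line, ordered by the Control mean. Control libraries run from 2089 for Fgg to 0.0424 for F13a1 on average, and the DKO points of the abundant genes lie to the left of the Control points, with replicate 2 nearest to them.

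Among the 24 members with at least 1000 reads over the Control libraries, Fga and Fgg varied most between those libraries. Fga stood at 1504, 1025 and 914 RPKM in Control replicates 1, 2 and 3, a coefficient of variation of 27.3%. For Fgg it was 20.7% and for Fgb 10.7%, and Control replicate 1 was the highest library for all 3 chains. F12, by contrast, had a coefficient of variation of 2.06%, Proc 2.23%, Serpinc1 2.57% and Proz, protein Z, 1.08%. The Control spread behind a comparison of Fga or Fgg is therefore wider than that behind one of these 4 genes.

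Over all members, 1 was lower and 3 were higher in DKO than in Control libraries past the threshold, an adjusted p under 0.05 (quasi-likelihood test of edgeR, Benjamini-Hochberg over all tested genes). The members tested numbered 32, since F13a1 had too few reads. Of all 15561 genes tested, 12.8% were called lower and 31.3% higher, so the members' share of calls was below that of the table. The median log2 fold change of the tested members was -2.62, against -0.08 over all tested genes. Every DKO library was below every Control library in TMM-scaled CPM for 23 of the 32, where 36.4% of all tested genes showed the same, and above for 3, where 34% did. The members that passed the count filter include Plaur, Plat and Plau through their reads in the DKO libraries, so counts over the tested members lean on that filter.

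The number of members called lower depended on the method and on single libraries. DESeq2 called 22 lower and 4 higher, where it called 30.7% and 35.3% of all genes. Without DKO replicate 1 edgeR called 14 lower and 3 higher (22% and 33.5% of all genes), and without DKO replicate 2 it called 21 lower and 4 higher (26.7% and 31.1%). DKO replicate 2 alone against the Control libraries gave 23 lower and 2 higher (28.6% and 25.3%), with its spread taken from the Control libraries. On the scale of abundant liver transcripts 0 were lower and 8 higher (0.546% and 62.5%), and after subtraction of background reads 0 were lower and 0 higher (20.8% and 17.3%).

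**Figure D2:**
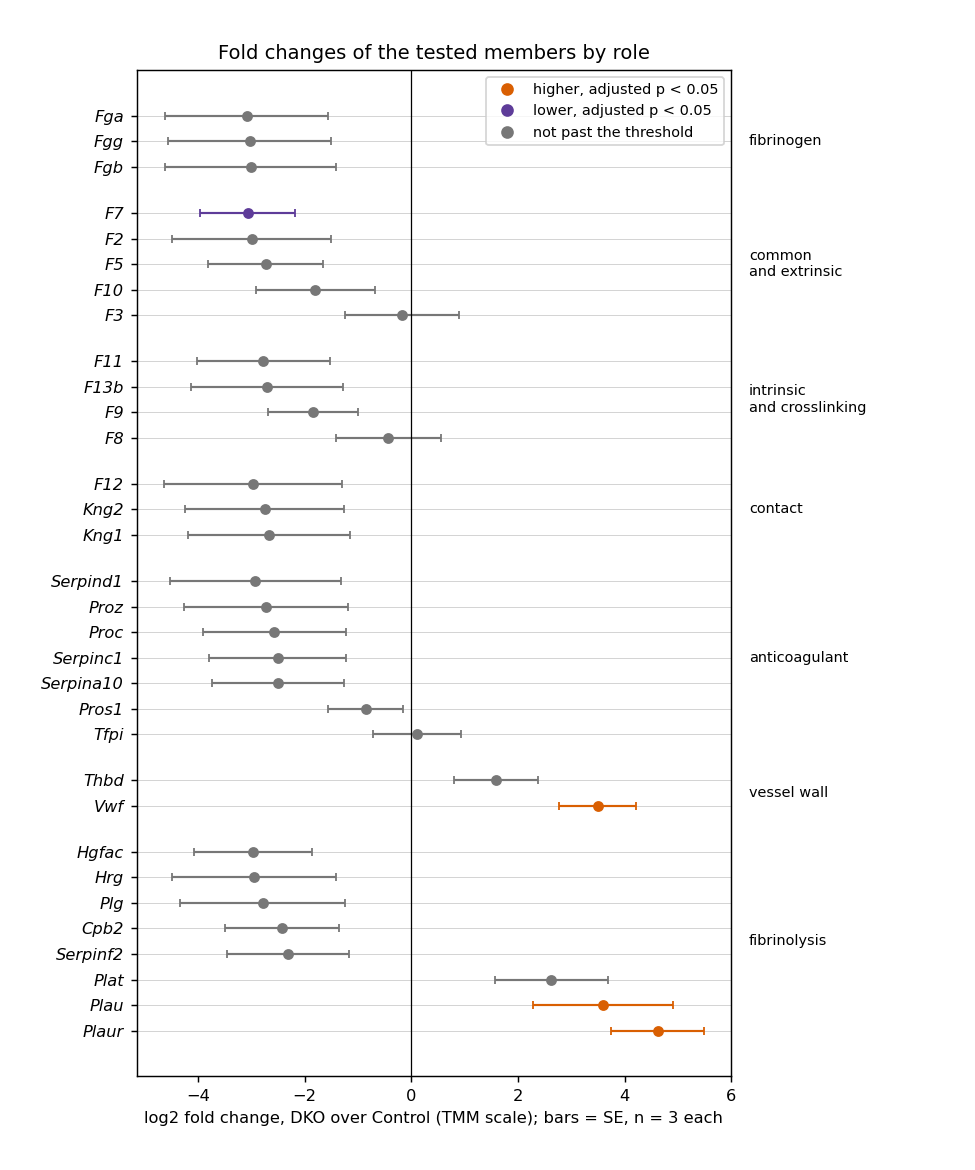
Log2 fold change of each tested member, DKO over Control on the TMM scale, with its standard error (n = 3 each), grouped by role. F7 lies below 0 and Vwf, Plaur and Plau above 0 past the threshold, and the hepatocyte-made factors cluster near the median of -2.62 with wide errors.

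Abundant members were low in CPM together with other transcripts of the same abundance. The 24 members with at least 1000 reads over the Control libraries all had negative fold changes, from -3.09 for Fga to -0.86 for Pros1, with a median of -2.74. All 2138 tested genes within their range of Control level, 75.9 to 5130 CPM, had a median of -2.25, and 97.6% of them were negative. In that range 20.1% of genes were called lower, against 1 of the 24 members.

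Fibrinogen, a hexamer of paired alpha, beta and gamma chains, is encoded by 3 neighbouring genes on chromosome 3 (mm10), Fgg at 83007724 to 83015049, Fga at 83026076 to 83033627 and Fgb, on the opposite strand, at 83040141 to 83049863. Exons of Fgg overlap those of Gm30097. None of the 3 changes passed the threshold. Fga had 22, 620 and 198 reads in DKO replicates 1, 2 and 3, against 61738, 37002 and 29143 in the Control libraries. Its TMM-scaled level was 436 ± 554 CPM in DKO and 3704 ± 890 CPM in Control, a log2 fold change of -3.09 (SE 1.53, edgeR adjusted p = 0.122). The libraries of the groups did not overlap, but the DKO values spread over more than their own mean.

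Fgb had 12, 779 and 508 reads in DKO and 72922, 52679 and 48349 in Control, with a log2 fold change of -3.01 (SE 1.60, edgeR adjusted p = 0.146). Fgg had 26, 743 and 292 reads in DKO and 69552, 44344 and 37730 in Control, with one of -3.03 (SE 1.53, edgeR adjusted p = 0.128). For all 3 chains DKO replicate 1 was the lowest library and DKO replicate 2 the highest of its group.

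The proportions of the chains do not depend on how libraries are scaled. Fgb made up 20%, 36.4% and 50.9% of fibrinogen reads in DKO replicates 1, 2 and 3, with Wilson 95% intervals of 11.8% to 31.8%, 34.4% to 38.4% and 47.8% to 54.0%. In Control it made up 35.7%, 39.3% and 42.0%. Fga made up 36.7%, 28.9% and 19.8% in DKO and 30.2%, 27.6% and 25.3% in Control. DKO replicate 3 had the highest beta chain share and the lowest alpha chain share of all 6 libraries, while replicate 2 lay within the Control range for both. The difference between group means did not pass a two-sided exact permutation test (p = 0.8 for Fgb and 0.9 for Fga, n = 3 each), where 0.1 is the smallest p possible. Intervals cover counting error only, since reads are not independent molecules.

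**Figure D3:**
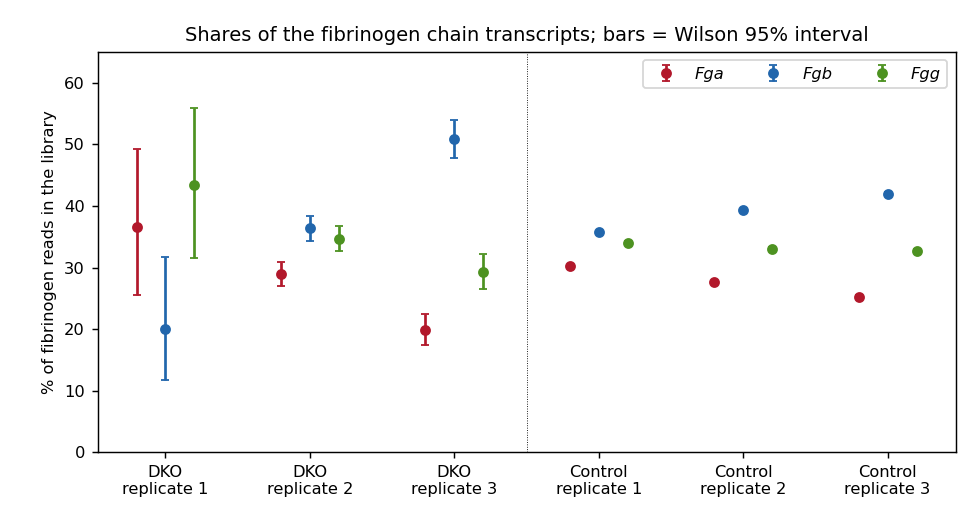
Share of each chain's transcript in the fibrinogen reads of a library, in percent, for 3 DKO and 3 Control libraries, with Wilson 95% intervals that are smaller than the symbols in Control. Fgb ranges from 20% to 50.9% in DKO and from 35.7% to 42.0% in Control.

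All fibrinogen reads together were 15.6%, 33.8% and 34.7% of the reads of the 33 members in DKO replicates 1, 2 and 3, and 44.8%, 38.3% and 38.0% in Control. The groups did not overlap (two-sided exact permutation test, p = 0.1, n = 3 each, adjusted p = 0.25 over 5 shares). These shares include background reads, estimated from genes silent in Control, which were not subtracted. DKO replicate 1 held 60 fibrinogen reads among 384 member reads. Background was expected to give 5.96 reads for Fga, 5.37 for Fgb, 2.95 for Fgg and 24.5 for Vwf there. Its part in the lower share was not tested. The members together took 0.124%, 1.21% and 0.193% of gene reads in the DKO libraries, against 2.87%, 2.51% and 2.46% in the Control libraries.

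The promoters of the 3 chains are shown because the genes share a locus. Their similar log2 fold changes were not particular to that locus, since F2 on chromosome 2 had -2.99 and F12 on chromosome 13 had -2.97. The promoters run from 250 bases before to 50 bases after the start in RefSeq (GRCm38.p6) and are written on the strand of the gene. Capitals mark matches, on either strand, to the HNF1 motif GTTAATNAT, the C/EBP motif TTGCNNAA and CTGGGAA, a core of interleukin 6 response elements described in rat fibrinogen genes.
Fgg, chr3:83007474-83007773, plus strand: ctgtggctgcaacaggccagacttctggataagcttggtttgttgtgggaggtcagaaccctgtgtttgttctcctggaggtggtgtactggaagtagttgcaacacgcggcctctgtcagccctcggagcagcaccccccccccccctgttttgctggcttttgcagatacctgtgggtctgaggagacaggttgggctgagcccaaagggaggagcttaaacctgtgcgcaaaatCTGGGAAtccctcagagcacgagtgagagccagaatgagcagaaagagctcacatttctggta
Fga, chr3:83025903-83026202, plus strand: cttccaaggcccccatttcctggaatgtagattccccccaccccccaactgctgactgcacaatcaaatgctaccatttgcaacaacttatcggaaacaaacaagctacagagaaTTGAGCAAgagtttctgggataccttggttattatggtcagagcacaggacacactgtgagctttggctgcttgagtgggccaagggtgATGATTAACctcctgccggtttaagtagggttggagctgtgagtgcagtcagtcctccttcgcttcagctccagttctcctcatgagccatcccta
Fgb, chr3:83049814-83050113, minus strand: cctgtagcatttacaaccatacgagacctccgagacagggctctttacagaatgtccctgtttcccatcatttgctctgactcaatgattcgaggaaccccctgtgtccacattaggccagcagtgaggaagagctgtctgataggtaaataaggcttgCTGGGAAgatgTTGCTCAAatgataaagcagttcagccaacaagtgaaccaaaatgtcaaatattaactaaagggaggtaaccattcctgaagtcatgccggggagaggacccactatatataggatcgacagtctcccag

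Fga held the HNF1 letters at positions -46 to -38 and the C/EBP letters at -135 to -128 relative to its start. Fgb held the C/EBP letters at -80 to -73 and CTGGGAA at -91 to -85, and Fgg held CTGGGAA at -13 to -7. No 2 of these matches overlapped. Of all 32851 promoters of this length, 0.801% held the HNF1 motif, 10.8% the C/EBP motif and 11.1% CTGGGAA. The HNF4 motif, searched as CAAAGTNCA, was in 1.41% of promoters. Among the 26 listed genes with a promoter in the table, the HNF1 letters were in those of F13b, Fga and Hgfac, and the HNF4 letters in those of Serpind1 and F9. The C/EBP letters were in 10 of the 26, among them Klkb1, which has no counts here, and CTGGGAA in 5. These counts are by gene, over 28 promoters, while the shares above are by promoter. A match describes the letters only.

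Of the genes that form thrombin, 1 of 5 passed the threshold, where 44.1% of all tested genes did and 12.8% were lower. F7, the protease that tissue factor activates, fell to 4, 24 and 7 reads in the DKO libraries, against 1735, 1738 and 1456 in the Control libraries. Its level was 18.0 ± 20.2 CPM in DKO and 147 ± 13.4 CPM in Control, a log2 fold change of -3.07 (SE 0.89, edgeR adjusted p = 0.0201), and every DKO library lay below every Control library. The call was lost without Control replicate 1, 2 or 3, with log2 fold changes of -3.05, -3.0 and -3.03 (edgeR adjusted p = 0.0567, 0.0537 and 0.0556). It was also lost after subtraction of background, expected at 2.83, 2.38 and 6.08 reads in DKO, with one of -2.87 (edgeR adjusted p = 0.210). On the scale of abundant liver transcripts the value was 0.88 (adjusted p = 0.598).

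F2, prothrombin, had 21, 522 and 146 reads in DKO and 33646, 32398 and 29789 in Control. Its log2 fold change was -2.99 (SE 1.49, edgeR adjusted p = 0.124). The cofactor F5 had 11, 82 and 67 reads in DKO and 6811, 5461 and 4663 in Control, with one of -2.73 (SE 1.08, edgeR adjusted p = 0.0658). F10, the protease that makes thrombin, had 15, 166 and 150 reads in DKO and 7006, 6213 and 5042 in Control, with one of -1.80 (SE 1.12, edgeR adjusted p = 0.202). For F2, F5 and F10 the groups did not overlap in CPM. F3, tissue factor, had 0, 10 and 4 reads in DKO and 163, 57 and 51 in Control, a log2 fold change of -0.17 with overlapping groups (edgeR adjusted p = 0.899). Its reads expected from background in the DKO libraries were 4.01, 2.84 and 6.55.

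F7, F10 and Proz lie side by side on chromosome 8, at 13026034 to 13035809, 13037308 to 13056676 and 13060914 to 13076026. DKO replicate 3 held 7 reads of F7, 150 of F10 and 16 of Proz, and the largest Control library 1735, 7006 and 5303. F10 was the most counted of these neighbours in that library and in the Control library. A stretch holding 1.92% of the 50-base words of the F10 transcript recurs in other genes, and such words were absent from F7 and Proz.

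The contact factors were low in CPM in every DKO library, without passing the threshold. F12, the protease that starts the contact branch, had 0, 162 and 28 reads in DKO and 10394, 8994 and 7746 in Control, a log2 fold change of -2.97 (SE 1.67, edgeR adjusted p = 0.164). Kng1 had 15, 682 and 260 reads in DKO and 44098, 33286 and 28268 in Control, with one of -2.66 (SE 1.52, edgeR adjusted p = 0.170). Kng2, a second kininogen of the mouse, had 0, 98 and 41 reads in DKO and 6607, 5300 and 4179 in Control, with one of -2.75 (SE 1.49, edgeR adjusted p = 0.152). DKO replicate 2 was the highest of its group for all 3 genes, and F12 and Kng2 were at 0 in replicate 1.

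The kininogen genes share sequence. Of the 50-base words of the Kng1 transcript 20% also occur in Kng2 transcripts, and of those of Kng2 18.2% occur in Kng1. HTSeq by default does not count a read with several alignments, so both levels are uncertain. The longest run that the coding sequences share (GENCODE M21, chromosome 16) is 116 bases, coding bases 752 to 867 of each gene, and is shown because a read inside it fits both.
Kng1 and Kng2: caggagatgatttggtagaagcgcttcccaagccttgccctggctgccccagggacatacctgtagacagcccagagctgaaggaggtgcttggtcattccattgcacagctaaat

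The ratio of Kng2 to Kng1 reads was 0.144 in DKO replicate 2 and 0.158 in replicate 3, against 0.150, 0.159 and 0.148 in the Control libraries. DKO replicate 1, with 0 reads of Kng2 and 15 of Kng1, could not resolve it.

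The remaining factors of the intrinsic branch and the fibrin crosslinker did not pass the threshold. F9, the protease missing in haemophilia B, had 14, 61 and 44 reads in DKO and 2947, 2211 and 1757 in Control, a log2 fold change of -1.84 (SE 0.84, edgeR adjusted p = 0.0988). F11, which activates factor IX, had one of -2.77 (edgeR adjusted p = 0.0954), and F13b one of -2.70 (edgeR adjusted p = 0.142). F8, the cofactor missing in haemophilia A, had 0, 7 and 6 reads in DKO and 149, 71 and 61 in Control. Its groups overlapped in CPM, with 4.94, 3.38 and 9.40 reads expected from background in the DKO libraries. F13a1 had 0, 0 and 9 reads in DKO and 1, 5 and 1 in Control, too few to be tested.

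None of the 7 anticoagulant genes passed the threshold. Proc, whose active form cuts the cofactors, had 5, 184 and 111 reads in DKO and 10883, 9992 and 8560 in Control, a log2 fold change of -2.57 (SE 1.34, edgeR adjusted p = 0.138). Serpinc1, the main inhibitor of thrombin and factor X, had 97, 586 and 274 reads in DKO and 35285, 29712 and 26182 in Control, with one of -2.51 (SE 1.29, edgeR adjusted p = 0.133). Both were below Control in every DKO library. Serpind1, heparin cofactor II, Serpina10, the inhibitor that works with protein Z, and Proz had values of -2.92, -2.50 and -2.73, with adjusted p of 0.154, 0.122 and 0.164, and each was at 0 in DKO replicate 1.

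Pros1 and Tfpi stood apart from the other inhibitors by their overlapping groups. Pros1, protein S, the cofactor of protein C, had 17, 50 and 18 reads in DKO and 1047, 884 and 647 in Control, or 21.6, 86.0 and 19.5 CPM in DKO and 79.9, 80.6 and 67.2 CPM in Control. Its log2 fold change was -0.86 (SE 0.70, edgeR adjusted p = 0.322). DKO replicate 2 was above all Control libraries and the other DKO libraries below them. Tfpi had 16, 7 and 3 reads in DKO and 202, 52 and 122 in Control, with a log2 fold change of 0.11 (edgeR adjusted p = 0.921), whose sign changed with the settings.

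Vwf, the carrier of factor VIII and a bridge for platelets, was higher in the DKO libraries. It had 34, 20 and 132 reads in DKO and 96, 62 and 64 in Control, or 43.3, 34.4 and 142.8 CPM in DKO and 7.33, 5.65 and 6.65 CPM in Control. The log2 fold change was 3.49 (SE 0.71, edgeR adjusted p = 0.00336), and the groups did not overlap. The reads expected from background alone, estimated from genes silent in Control, were 24.5, 20.6 and 52.5, and after their subtraction the log2 fold change was 2.80 (edgeR adjusted p = 0.223). Thbd, the thrombin receptor that switches on protein C, had 13, 2 and 14 reads in DKO, against 7.37, 5.42 and 13.5 expected from background, and 58, 24 and 51 in Control. Its log2 fold change was 1.58 (SE 0.79, edgeR adjusted p = 0.124).

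Endothelial and platelet markers, the cells known to hold Vwf, are given beside it. The 10 endothelial markers summed to 345, 267 and 319 CPM in DKO and 336 to 588 CPM in Control, with 1 higher and 2 lower past the threshold (31.3% and 12.8% of all tested genes), and none was at 0 in all DKO libraries. The higher one was Pecam1, with 182, 44 and 82 reads in DKO and 342, 110 and 113 in Control (log2 fold change 3.05, edgeR adjusted p = 0.00959). Eng was lower, with 2, 11 and 13 reads in DKO and 981, 555 and 471 in Control (log2 fold change -2.31, edgeR adjusted p = 0.0278). Fcgr2b was lower too, with 0, 6 and 11 reads in DKO and 1127, 556 and 514 in Control (log2 fold change -3.10, edgeR adjusted p = 0.0215). The median over the 10 markers was -0.84. Platelet markers, 9 in all, summed to 10.2, 37.8 and 28.1 CPM in DKO and 6.23 to 15.6 CPM in Control, with 1 of 3 tested higher. The DKO sums rest on 8, 22 and 26 reads, without subtraction of background. Pf4, the higher one, had 8, 0 and 10 reads in DKO, against 1.43, 1.05 and 2.61 expected from background. Itga2b had 0, 12 and 3 against 8.98, 7.92 and 17.3, and Itgb3 0, 6 and 6 against 10.8, 7.68 and 19.5. Gp1bb was at 0 in all DKO and Control libraries. Gp5 was at 0 in all DKO libraries and at 1, 5 and 0 reads in Control. The part of these markers in the Vwf result was not tested.

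The fibrinolytic genes held abundant liver products that were low in CPM and scarce members of the activator system. The group held 8 tested genes, with Hgfac counted among them. Of these 8, Plau and Plaur were higher past the threshold, where 31.3% of all tested genes were. Both passed the count filter through their DKO reads, so their calls lean on that filter. Plg had 13, 584 and 139 reads in DKO and 32839, 30200 and 27277 in Control, a log2 fold change of -2.79 (SE 1.54, edgeR adjusted p = 0.158). Hrg had 3, 259 and 57 reads in DKO and 17333, 14914 and 12039 in Control, with one of -2.95 (SE 1.54, edgeR adjusted p = 0.140). For both genes every DKO library was below every Control library. Exons of Plg overlap those of Slc22a3 on the other strand.

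Among the brakes on fibrinolysis, Serpinf2, which inhibits plasmin, had 17, 157 and 113 reads in DKO and 8295, 7628 and 6961 in Control, a log2 fold change of -2.31 (SE 1.14, edgeR adjusted p = 0.122). Cpb2 had 17, 113 and 71 reads in DKO and 7170, 5852 and 4642 in Control, with one of -2.42 (SE 1.07, edgeR adjusted p = 0.0912). Hgfac was grouped here too but is no such brake, being a protease related to factor XII that activates hepatocyte growth factor. It had 2, 42 and 14 reads in DKO and 2917, 2661 and 2228 in Control, with a log2 fold change of -2.97 (SE 1.10, edgeR adjusted p = 0.0533). None of these 3 passed the threshold, and none overlapped.

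Plaur, the receptor that holds urokinase at the cell surface, was higher in DKO. It had 4, 9 and 20 reads in DKO and 4, 6 and 8 in Control, or 5.09, 15.5 and 21.6 CPM in DKO and 0.305, 0.547 and 0.831 CPM in Control. The log2 fold change was 4.62 (SE 0.87, edgeR adjusted p = 0.00218), and the groups did not overlap. The reads expected from background were 4.78, 3.40 and 8.66, and after their subtraction Plaur no longer passed the count filter.

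Plau was also higher past the threshold, by a narrow margin and through 1 library. It had 2, 0 and 46 reads in DKO and 28, 12 and 11 in Control, or 2.55, 0 and 49.8 CPM in DKO and 2.14, 1.09 and 1.14 CPM in Control. The groups overlapped, since DKO replicate 2 held 0 reads, and its log2 fold change was 3.60 (SE 1.31, edgeR adjusted p = 0.04999). Without DKO replicate 3 it was 0.37 (edgeR adjusted p = 0.826), and against DKO replicate 2 alone it was negative. Without any 1 of the Control libraries it did not pass the count filter. The reads expected from background in the DKO libraries were 4.30, 2.78 and 7.08. Plat had 4, 3 and 4 reads in DKO, against 9.90, 7.02 and 16.2 expected from background, and 15, 0 and 11 in Control, with a log2 fold change of 2.63 (SE 1.06, edgeR adjusted p = 0.0698). The 7 macrophage markers, cells known to make urokinase and its receptor, summed to 20.4, 112 and 145 CPM in DKO and 228 to 292 CPM in Control, with none called, and their part in these results was not tested.

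Set on its own liver transcripts, DKO replicate 2 held the abundant members at a summed level just below that of the Control libraries. The scale was the median ratio of 155 abundant genes outside the set to their Control mean, which was 0.0465%, 1.88% and 0.550% in DKO replicates 1, 2 and 3. In DKO replicate 2 the 24 abundant members had 6279 reads, against 6957 expected at Control proportions, a ratio of 0.902 (95% Poisson interval 0.880 to 0.925, counting error only). The median of the single ratios was 0.982, and 9 of the 24 lay within the range of the Control libraries, 8 below all of them and 7 above all of them. The Control ratios rest on far more reads, so counting error alone can put a member outside their range. F7, at 0.775 with a 95% Poisson interval of 0.497 to 1.15, lay below its Control values of 0.951 to 1.04. The share of other abundant genes outside the range of the Control libraries was not computed, so the counts of members outside it show no trait of the set. In the Control libraries the summed ratio ran from 0.926 to 1.11.

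In DKO replicate 2 the single ratios ran from 0.713 for Fgb to 3.09 for Pros1. Kng1 had 682 reads against 664 expected, Plg 584 against 567, Serpinc1 586 against 573, Proc 184 against 185 and F12 162 against 170. The fibrinogen chains were lower on this scale, with ratios of 0.772 for Fga, 0.713 for Fgb and 0.780 for Fgg. Those of the Control libraries were 0.772 to 1.30 for Fga, 0.896 to 1.13 for Fgb and 0.843 to 1.24 for Fgg, so that Fgb and Fgg lay below all Control libraries and Fga level with the lowest. The intervals of Fga, Fgb, Fgg, F2 and F5 were wholly below 1, and those of F10, F9 and Pros1 wholly above it.

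**Figure D4:**
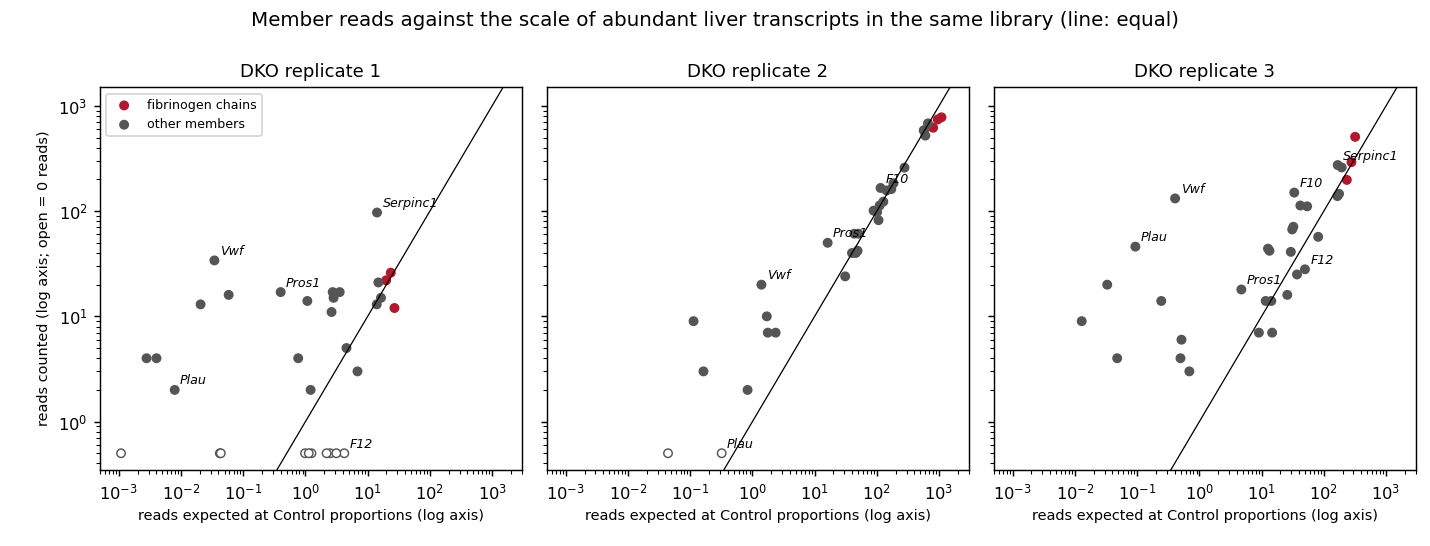
Reads counted for each of the 33 members in a DKO library against the reads expected from that library's own abundant liver transcripts, on log axes, with the line of equality. In replicate 2 the abundant members follow the line with a summed ratio of 0.902, in replicate 3 they scatter around it, and in replicate 1, 10 of the 33 are at 0.

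DKO replicate 3 scattered more widely, with ratios from 0.474 for F13b to 4.48 for F10. F10 had 150 reads against 33.5 expected from liver transcripts and 9.04 from background. F9 had 44 against 12.7 and 2.59, Serpinf2 113 against 42.0 and 7.60, and Fgb 508 against 319 and 7.43. F12 had 28 against 49.8 and 6.23. The summed ratio was 1.30 (95% Poisson interval 1.25 to 1.35), and it was 0.879 when genes over 10000 Control counts set the scale.

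DKO replicate 1 held too few liver reads for most single members. The 24 abundant members had 311 reads against 172 expected from liver transcripts, a ratio of 1.81 (95% Poisson interval 1.62 to 2.02), and the ratio was 1.04 with background reads added to those expected. Of the 24, 7 were at 0. Serpinc1 alone had 97 of the 311 reads, against 14.1 expected from liver transcripts and 13.6 from background. Its exons overlap those of Zbtb37 on the other strand, and the strand setting of the counting is not given in the sources used here. Within that library Serpinc1 had 4.62 times the reads of F2, against 1.12 and 1.88 times in DKO replicates 2 and 3 and 0.879 to 1.05 times in Control. Its ratio to F2 was the 1 of 8 ratios whose groups did not overlap (two-sided exact permutation test, p = 0.1, the smallest possible, n = 3 each, adjusted p = 0.8 over 8 ratios).

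Few other genes of the pathway passed the threshold. Of 26 listed genes for the vitamin K cycle, secretion, inhibitors and receptors, 19 were tested, of which 2 were higher and 1 lower past the threshold, with a median log2 fold change of -1.59, where 31.3% of all tested genes were higher and 12.8% lower. Vkorc1l1, a vitamin K epoxide reductase, fell to 2, 0 and 1 reads in DKO, against 448, 369 and 320 in Control, a log2 fold change of -4.69 (SE 0.87, edgeR adjusted p = 0.00189), with 7.41, 4.57 and 10.3 reads expected from background in the DKO libraries. Ggcx, the carboxylase that vitamin K-dependent factors need, had 0, 11 and 0 reads in DKO and 533, 331 and 253 in Control (log2 fold change -2.52, edgeR adjusted p = 0.118). Vkorc1, the liver reductase and target of warfarin, had 8, 6 and 0 reads in DKO and 160, 130 and 91 in Control (log2 fold change -0.76, edgeR adjusted p = 0.533).

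The higher ones were Serpine2, an inhibitor of thrombin and plasminogen activators in tissues, and A2m, a broad protease inhibitor. Serpine2 had 9, 25 and 46 reads in DKO and 34, 20 and 26 in Control, a log2 fold change of 3.86 (SE 0.75, edgeR adjusted p = 0.00261), with 13.1, 9.33 and 21.5 reads expected from background. A2m had 3, 13 and 11 reads in DKO and 0, 6 and 1 in Control, with one of 5.74 (SE 1.21, edgeR adjusted p = 0.00401), and 12.7, 8.25 and 21.0 expected from background. Both genes passed the count filter only through their DKO reads. Those of A2m in replicates 1 and 3, and of Serpine2 in replicate 1, were fewer than expected from background.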

How the data were processed

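Per the submitters' processing notes, the authors used STAR, HTSeq and mm10. The deposited files give raw counts of reads for every Ensembl gene, 1 file a library. No source used here names versions, annotation release, library kit or strand setting. The 5 rows that name no gene held 95.3% to 97.3% of DKO reads and 65.1% to 66.7% of Control reads and were left out. Symbols came from a table of gene names, which matched 42462 of 43346 identifiers, and positions, lengths and GC content from GENCODE M21. No 2 libraries held identical values or agreed within sampling noise.

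Tests used edgeR 4.0.16 in R 4.3.3 (filterByExpr, TMM, robust quasi-likelihood fit over all 15561 genes that passed, Benjamini-Hochberg, two-sided). They were first tested on data simulated with the Control spread and without background reads, which cannot show how they behave on the DKO libraries. Expected background was the read density over 8600 coding genes nearly silent in Control (10 summed counts or fewer), per kb of exon in 10 bins of GC content. Ratios used a pseudocount of 0.5 and scipy 1.17.1. Values per library were given for all called members, the 12 most abundant per kb in Control and called genes of the pathway lists. Other members given in full and Ggcx, Vkorc1, Pecam1, Eng, Fcgr2b and the named platelet markers were chosen after their values were seen. The members, lists and alternatives were chosen with earlier results of these data known.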

Additional observations from a re-analysis of the deposited data

Results flagged for a closer look

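Uniquely aligned reads outside genes, which enter none of the comparisons, made up 73.7%, 65.3% and 61.0% of all reads in DKO replicates 1, 2 and 3, against 40.6%, 38.4% and 37.8% in the Control libraries. Each DKO library was above every Control library.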

How the results depend on the processing

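With 3 libraries a group and 309731 to 1491237 gene reads in the DKO libraries, the counts of lower calls moved with most choices, while the counts of higher calls moved in few of them, and the cause was not tested. Against 1 lower and 3 higher members, DESeq2 1.42.0 gave 22 lower, DESeq2's size factors 8, no count filter 21, and DKO replicate 2 alone, added after the data were seen, 23. Over all genes the lower calls (1992) became 4776, 3577, 4650 and 4374 in these settings, and the higher calls (4871) became 11477 without the filter. Leaving out 1 library gave 0 to 21 lower members and 567 to 4492 lower genes, the members being 14 without DKO replicate 1, 21 without DKO replicate 2, 1 without DKO replicate 3 and 0 without any 1 of the Control libraries. Background subtraction left 0 members called in either direction by edgeR and 2301 higher genes.

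Scaling on abundant liver genes gave 0 lower and 8 higher members, 85 lower and 9723 higher genes, with the median of all genes shifted to 4.68. On that scale the log2 fold changes turned to 0.045 for F2, 2.71 for F3, 1.22 for F5, 0.88 for F7, 1.90 for F10, 2.77 for F8, 2.54 for F9, 0.15 for Kng1, 0.48 for Proc, 3.98 for Pros1, 1.67 for Serpinc1, 0.59 for Serpina10, 1.5 for Serpinf2, 1.63 for Cpb2 and 0.13 for Hgfac, all below that shift. Low counts also changed sign elsewhere. Against DKO replicate 2 alone the values were 1.16 for F3, 0.58 for F8, 0.19 for Pros1, -0.20 for Thbd and -6.67 for Plau, the last against 0 reads. Background subtraction turned Tfpi to -0.10 and Thbd to -0.078, and no filter turned Tfpi to -0.046. Without 1 library, F3 ran from -1.90 to 0.27, F8 from -1.41 to 0.018 and Tfpi from -0.75 to 1.01.

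The summed ratio of member reads to expected reads was 1.81 in DKO replicate 1, and 1.19 or 2.56 with abundant genes over 10000 or 100000 Control counts and 1.04 with background added. It was 0.902 in replicate 2, and 0.932 with the highest cutoff. It was 1.30 in replicate 3, and 0.879, 1.48 and 1.17 in the same 3 settings. The replicate numbers did not pair the libraries (correlations of same-numbered deviations 0.13, 0.085 and -0.026), and the replicate block gave 4 lower members and ended the call of Plau (adjusted p = 0.414). Plaur was called in the 12 settings that gave it a value. It entered those with a count filter through its DKO reads, and subtraction of background reads removed it.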
